A study of Mus musculus with 10 samples.

Results

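The miR-106b~25 cluster is a group of 3 miRNAs, miR-106b, miR-93 and miR-25, processed from hairpins that lie together inside the gene Mcm7. Its members here were the probes mmu-miR-106b, mmu-miR-93 and mmu-miR-25, 3 of 566 mouse miRNA probes on a NanoString nCounter panel. They were taken by name and not by a rule on measured values, though with earlier results of these data known. The samples were 10 cultures of B cell progenitors from C57BL/6 mouse fetal liver at E14.5, all transformed with a retroviral vector for the v-Abl kinase, the oncogene of Abelson virus. Of these, 5 were wild type (libraries 1 to 5) and 5 carried the Bim3'UTRmut/mut genotype, a homozygous mutation in the 3' untranslated region of Bim (libraries 6 to 10, here called mutant). Neither the mutated bases nor the number of embryos behind the cultures is given by the labels, so a p-value here covers the spread among cultures that may differ only technically. Bim mRNA was not analysed here, which leaves the genotypes as labelled. The question was whether the supply of a miRNA group that can repress Bim differed between cells with an intact and a mutated Bim 3' untranslated region.

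Mcm7 encodes a subunit of the MCM helicase, which unwinds DNA at replication origins, and the cluster is transcribed with it. Its 3 miRNAs belong to 2 seed families, a seed being bases 2 to 8 of a miRNA, which pair with target mRNAs. miR-106b and miR-93 share the miR-17 seed with members of the miR-17~92 and miR-106a clusters and repress, among others, the cell cycle inhibitor p21. miR-25 shares the miR-92 seed and is known to repress Bim, a BH3-only protein that starts apoptosis in lymphocytes. Mice without miR-106b~25 are viable, and its loss worsens the defects of embryos that also lack miR-17~92.

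In the RefSeq annotation of GRCm38.p6 the hairpins lie on the minus strand within the span of Mcm7 (chr5:138164583-138172111), in the order Mir106b (chr5:138165737-138165818), Mir93 (chr5:138165523-138165610) and Mir25 (chr5:138165321-138165404) along the transcript. They fit in 498 bases, and Mir93 and Mir25 lie 118 bases apart. The annotation table used has no exons, so their place in an intron is background knowledge. Mature sequences follow from RefSeq, 5' to 3', with the seed in capitals. They are shown because the seeds set the families, and because the bases outside the seed are all that lets a probe tell relatives apart. Arms were assigned from the panel's plain names, and the panel held 0 probes for the other arms of these hairpins. The miR-17 seed AAAGUGC is carried by 7 of 1679 mature miRNAs in the table, of which the panel covered the 6 shown first.
miR-106b: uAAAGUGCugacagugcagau
miR-93: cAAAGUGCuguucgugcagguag
miR-17: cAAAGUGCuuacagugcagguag
miR-106a: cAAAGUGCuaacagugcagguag
miR-20a: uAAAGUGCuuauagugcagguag
miR-20b: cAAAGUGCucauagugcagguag
The miR-92 seed AUUGCAC is carried by 6 mature miRNAs, and all had probes.
miR-25: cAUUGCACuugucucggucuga
miR-32: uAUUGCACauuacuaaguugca
miR-363: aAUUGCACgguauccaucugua
miR-92a: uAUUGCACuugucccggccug
miR-92b: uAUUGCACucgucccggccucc
miR-367: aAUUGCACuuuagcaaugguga

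The panel read miR-17 and miR-106a with 1 probe and miR-20a and miR-20b with another. By edit distance, the number of single-base changes that turn one sequence into the other, miR-93 lies 3 from miR-17 and miR-20b and 4 from miR-106a and miR-20a. miR-106b lies 5 from miR-17, miR-106a and miR-20a, 6 from miR-20b and 7 from miR-93. miR-25 lies 4 from miR-92a and 6 to 8 from the others of its seed. The files hold no probe sequences, so cross-binding between such relatives was not tested. The probes shared with miR-17 and miR-20a counted 14303 to 21486 per library, far above miR-93 and miR-106b.

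The headers of the deposited table give all 10 libraries one common run prefix and number them 1 to 10, wild type before mutant. The headers do not say what that number stands for, and any order of handling it records cannot be told apart from genotype. Total mouse miRNA counts ran from 240469 to 354826 per library, with mutant 9 (354826) and mutant 10 (331407) highest. The background threshold, the mean + 2 SD of the 8 negative control probes of a library, ran from 90.5 to 127 counts, and the tests took the 116 probes that exceeded it in 5 or more libraries. Of 8 miRNAs listed as B-lymphoid and pan-haematopoietic markers, all 8 were above it in at least 5 libraries, as were 78 of their 80 single values. In wild type 5, miR-150 (60 counts) and miR-155 (84 counts) were under it. Summed counts of the 8 were 63640 to 75017 in wild type and 70459 to 87987 in mutant samples. Of these sums miR-16 alone gave 21891 to 31179 per library. How far each of the 8 is restricted to such cells was not tested. Of 16 markers of erythroid, myeloid, endothelial, hepatocyte, muscle, neural and mesenchymal cells, 0 were above background in at least 5 libraries. Their sums were 747 to 855 in wild type and 592 to 995 in mutant samples. Above background were 5 of their 160 single values, among them miR-126-3p (234 counts) and miR-223 (137 counts) in mutant 10. None of these markers was at 0 in all libraries. In earlier results of these data mutant 9 and 10 stood apart from mutant 6, 7 and 8. The lymphoid marker miR-181a counted 10918 and 10817 in them against 3210 to 4585 in the other 8 libraries. The B2m mRNA control read 4029 and 4195 for mutant 9 and 10, against 1490 to 1592 for mutant 6, 7 and 8. Wild type B2m spanned 3250 to 4561, so for B2m it was mutant 6, 7 and 8 that departed from wild type. Gapdh read 244 and 309 for mutant 9 and 10, against 966 to 1187 for mutant 6, 7 and 8. Wild type Gapdh spanned 625 to 901, a range that lay between these sets of mutant libraries. Key results are therefore also given without either set.

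All 3 members were above background in all 10 libraries. miR-25 gave the highest counts of the 3. It counted 6601, 6514, 6536, 6705 and 5544 in wild type 1 to 5, and 7570, 8017, 7044, 12462 and 8692 in mutant 6 to 10. Every mutant library was above every wild type library in these raw counts, as for 6.03% of the 116 probes. The separation was not seen after scaling. After TMM normalisation, which sets libraries level on the typical miRNA, miR-25 was at 6205 to 7516 in wild type and 6639 to 10155 in mutant samples, and mutant 8 lay among the wild type libraries. Scaled to the positive controls, the lowest mutant library (6527) lay just under the highest wild type one (6534), and 4.31% of probes had groups that did not overlap. Scaled to housekeeping mRNAs, 10.3% of probes did not overlap, with 0 of 3 members among them.

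miR-106b, the member nearest the start of the transcript, counted 1533, 1283, 1763, 1512 and 1340 in wild type 1 to 5. It counted 1497, 1723, 2166, 3166 and 2085 in mutant 6 to 10. The groups overlapped, with mutant 6 and 7 inside the wild type range and mutant 9 well above all other libraries. Normalised counts ran from 1333 to 1841 in wild type and from 1607 to 2579.8 in mutant samples.

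miR-93, the middle hairpin, was the scarcest. It counted 928, 912, 865, 767 and 761 in wild type 1 to 5, and 997, 1001, 978, 1158 and 790 in mutant 6 to 10. Normalised, wild type libraries held 852 to 948 and mutant libraries 740.2 to 1070.1, so that wild type lay inside the mutant range. The lowest value was that of mutant 10 and the highest that of mutant 6, whereas mutant 10 was above mutant 6 for miR-106b.

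**Figure D1:**
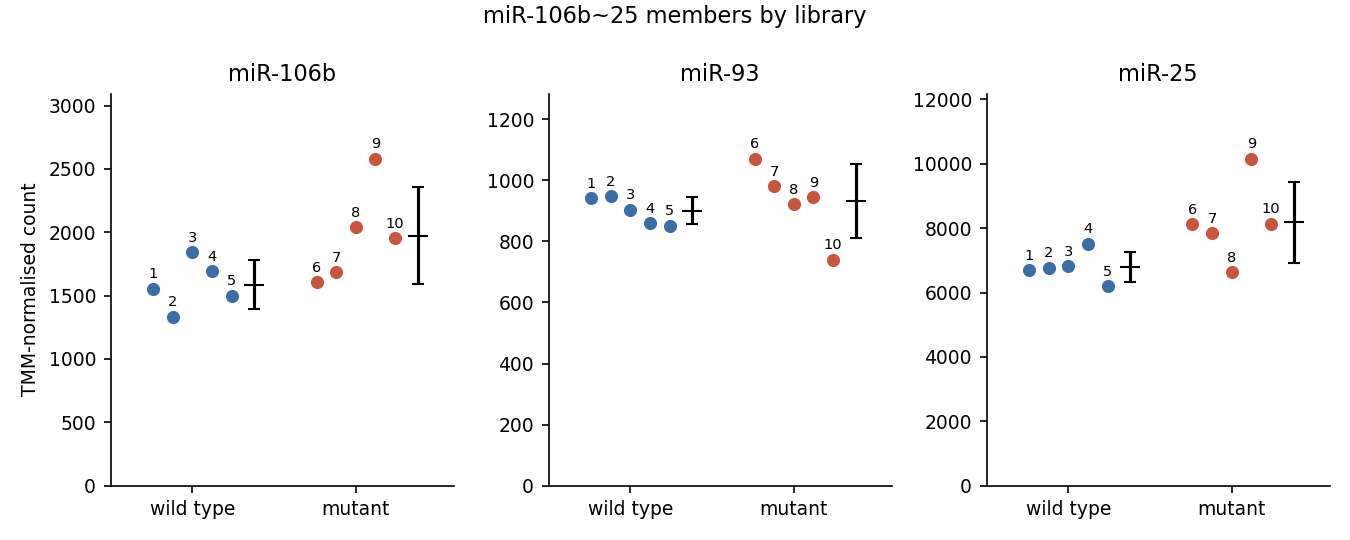
TMM-normalised counts of the 3 members in each library (points, numbered by library) with the mean and SD of each genotype (n = 5) in black. Mutant 9 is the highest library for miR-106b and miR-25 but lies within the wild type range for miR-93.

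The counts ranked miR-25 9th to 14th among the 116 tested probes in single libraries, miR-106b 22nd to 28th and miR-93 31st to 46th. These ranges did not overlap, so the order miR-25, miR-106b, miR-93 held in each of the 10 libraries. Counts of different probes also carry their own ligation and capture efficiency, so the order is one of counts and not of molecules. miR-25 made up 69.1% to 75.2% of the cluster's counts, miR-106b 14.7% to 21.3% and miR-93 6.83% to 10.5%. As multiples of the background threshold, miR-25 lay at 47.2 to 116, miR-106b at 11.3 to 29.5 and miR-93 at 6.47 to 10.8. Together they took 3.10% to 3.74% of miRNA counts in wild type and 3.49% to 4.73% in mutant samples, mutant 9 being highest and wild type 5 lowest.

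The spread between libraries was numerically above counting error for each member. The excess was not tested and was smallest for miR-93 in wild type samples. In wild type samples the coefficient of variation of normalised counts was 4.94% for miR-93 against a counting error of 3.44%, 6.90% for miR-25 against 1.25%, and 12.2% for miR-106b against 2.59%. In mutant samples it was 13.0%, 15.4% and 19.4%, against counting errors of 3.19%, 1.07% and 2.17%. The wider spread in mutant samples was not particular to the cluster, as 96 of 116 probes had the higher value there. The medians over all 116 probes were 12.2% in wild type and 19.8% in mutant samples.

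None of the members passed the test between genotypes. In edgeR's quasi-likelihood fit over the 116 probes, 0 of 3 members passed an adjusted p of 0.05, as did 0 of all 116 (0.0%). At an unadjusted p under 0.05 there was 1 of 3, miR-25, against 11 of 116 (9.48%), of which 6 were higher in mutant samples (5.17%). DESeq2 called 5 of the 116 (4.31%) at its adjusted p, 3 of them higher in mutant samples (2.59%), and limma-voom called 0, with 0 members in either. In these bulk samples, more cells with a miRNA and more of it per cell cannot be told apart.

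For miR-25 the normalised count averaged 6802 ± 469 over wild type and 8183 ± 1264 over mutant libraries (SD, n = 5 each). The log2 fold change, mutant over wild type, was 0.27 (SE 0.11, 95% interval 0.02 to 0.51), with an edgeR adjusted p of 0.373. miR-106b had 1585 ± 193 and 1974 ± 384 (SD, n = 5 each), which differ by 0.32 on the log2 scale in the fit (SE 0.15, -0.01 to 0.64), with the same edgeR adjusted p of 0.373. For miR-93 the means were 901 ± 44.5 and 931 ± 121 (SD, n = 5 each), and the log2 fold change was 0.05 (SE 0.12, -0.21 to 0.31; edgeR adjusted p = 0.891). All 3 values were above 0, as were 58 of the 116, and their median was 0.27 where that of all probes was -0.00. Differences at least as large as that of miR-106b in either direction were found for 31 probes, itself included, and as large as that of miR-25 for 40.

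**Figure D2:**
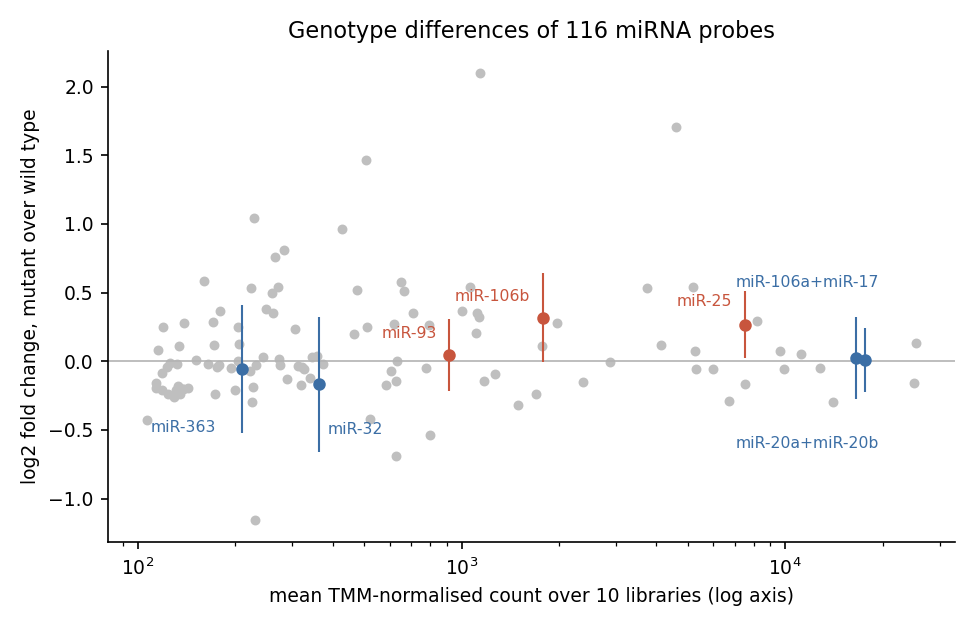
Log2 fold change, mutant over wild type, against mean normalised count (log axis) for the 116 tested probes in grey, with the cluster members in red and their same-seed relatives in blue. Bars are 95% intervals from the fit. The intervals of miR-93 and of the 4 relatives include 0, that of miR-106b just does (-0.01 to 0.64) and that of miR-25 does not (0.02 to 0.51), while many other probes lie as far from 0.

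Choice of scale moved all 3 values together. Scaling by the positive controls, without the separate ligation controls, put the median of all probes at 0.20. It gave 0.55 for miR-106b, 0.50 for miR-25 and 0.26 for miR-93. Scaling by the 4 housekeeping mRNAs put the median at 0.46 and gave 0.84, 0.78 and 0.51. In both, miR-106b and miR-25 lay 0.30 to 0.38 above the median and miR-93 0.05 above it. The edgeR adjusted p of the members was 0.0898 or higher under the 6 scalings tried. Without the filter on low probes, over 566 probes with a median of -0.04, miR-106b was at 0.55, miR-25 at 0.47 and miR-93 at 0.25 (edgeR adjusted p = 0.326, 0.261 and 0.703). Of those 566 probes, 404 were above background in no library, so most probes that entered that scaling held background counts.

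The values also moved with the mutant libraries included. Without mutant 9 and 10, miR-106b was at 0.17 (edgeR adjusted p = 0.486), miR-25 at 0.15 (0.419) and miR-93 at 0.14 (0.421), so the 3 members lay close together. Of the 116 probes 5 passed there (4.31%), 1 of them higher in mutant samples (0.862%), with 0 members among them. Without mutant 6, 7 and 8, miR-106b was at 0.52 (0.0632), miR-25 at 0.43 (0.0411) and miR-93 at -0.10 (0.550), and the members lay apart. miR-25 passed there, as did 20 of the 116 probes (17.2%), 16 of them higher in mutant samples (13.8%). Those libraries were set apart with earlier results known and only 2 mutant libraries remained, so this call was not taken as a result on the genotype. B2m, Gapdh and miR-181a differed between the same libraries, as given above, and their part in these values was not tested.

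**Figure D3:**
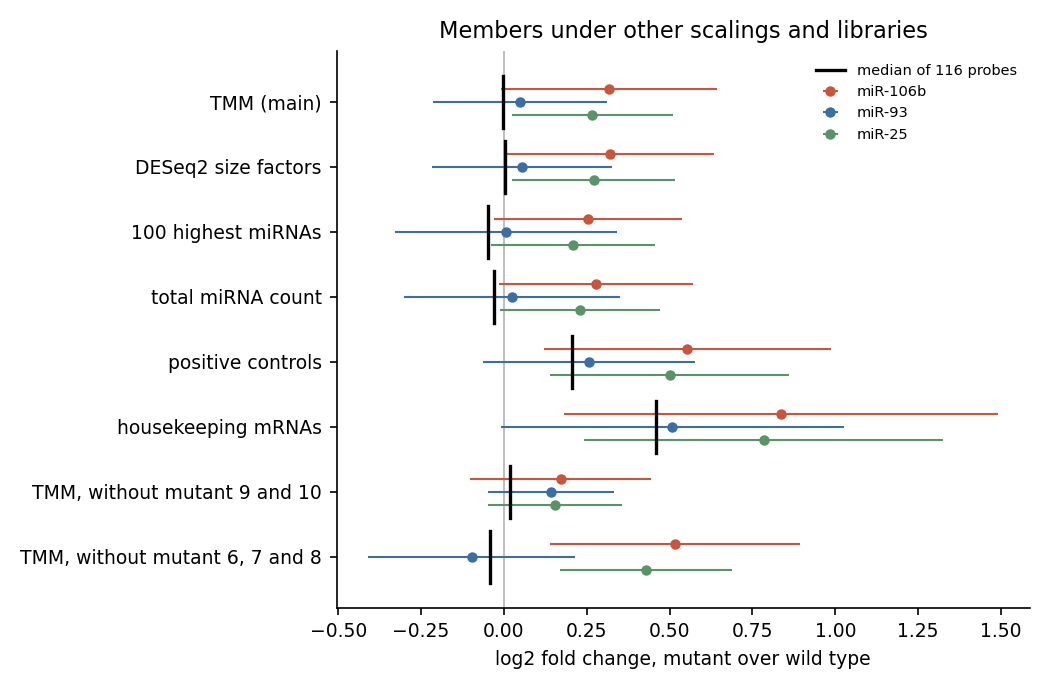
Log2 fold change of each member, mutant over wild type, with its 95% interval, under 6 scalings of all 10 libraries and under TMM without 2 sets of mutant libraries. The black bar is the median of the 116 probes in that fit. miR-106b and miR-25 lie to the right of it in all 8 rows, and miR-93 moves from 0.14 to -0.10 between the last pair.

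Ratios within a library do not depend on scaling and ask whether the 3 products of 1 transcript kept their proportions. Across 9 ratios, 3 between members and 6 to same-seed relatives, 0 passed an exact two-sided permutation test of log2 ratios after Benjamini-Hochberg adjustment, and 0 had an unadjusted p under 0.05 (the lowest was 0.167). With 5 against 5 libraries the smallest p this test allows is 0.00794.

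Counts of miR-106b per count of miR-93 were 1.65, 1.41, 2.04, 1.97 and 1.76 in wild type 1 to 5, and 1.50, 1.72, 2.21, 2.73 and 2.64 in mutant 6 to 10. Mutant 8, 9 and 10 lay above every wild type library and mutant 6 and 7 inside their range. The mean difference was 0.27 on the log2 scale (interval -0.23 to 0.69, from inverting the test; exact permutation p = 0.222, adjusted p = 0.452). It was 0.17 without mutant 9, 0.03 without mutant 9 and 10, and 0.62 without mutant 6, 7 and 8. miR-25 per miR-93 was 7.11, 7.14, 7.56, 8.74 and 7.29 in wild type 1 to 5, and 7.59, 8.01, 7.20, 10.8 and 11.0 in mutant 6 to 10. Here mutant 9 and 10 alone exceeded the wild type range, and mutant 6, 7 and 8 fell within it. The mean difference was 0.22 (-0.10 to 0.59; exact permutation p = 0.198, adjusted p = 0.452). It was 0.14 without either mutant 9 or mutant 10, 0.0094 without both, and 0.53 without mutant 6, 7 and 8. In both ratios the 2 highest of the 10 libraries were mutant 9 and 10.

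miR-106b per miR-25 was 0.197 to 0.270 in wild type and 0.198 to 0.307 in mutant samples, with mutant 8 the only library outside the wild type range. The mean difference was 0.05 (-0.26 to 0.37; exact permutation p = 0.722, adjusted p = 0.813), and its sign turned when wild type 2 or mutant 8 was left out. The intervals of all 3 ratios are wide, so equal proportions in the genotypes were not shown either.

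**Figure D4:**
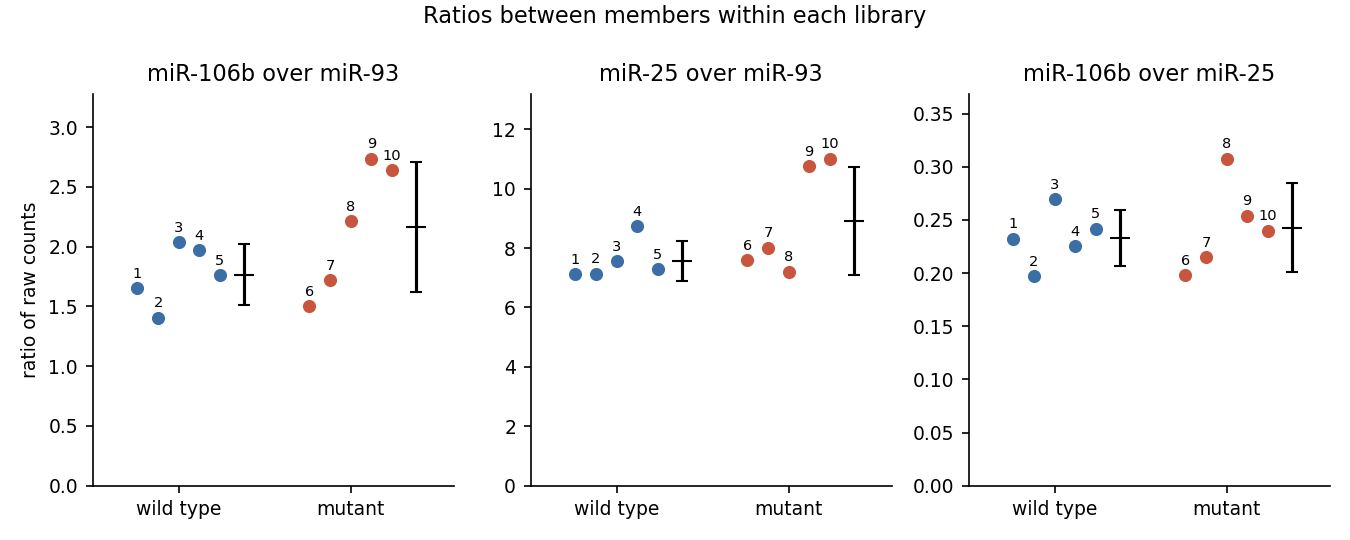
Ratios of raw counts between members within each library (points, numbered by library), with the mean and SD of each genotype (n = 5) in black. Mutant 9 and 10 are the highest libraries for both ratios to miR-93, at 2.73 and 2.64 for miR-106b and 10.8 and 11.0 for miR-25, and lie within the wild type range for miR-106b over miR-25.

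Among the miR-17 seed probes the cluster was a minor part in all libraries. miR-106b and miR-93 together gave 7.25%, 6.85%, 7.27%, 7.08% and 5.70% of the 4 miR-17 seed probes' counts in wild type 1 to 5. In mutant 6 to 10 they gave 6.32%, 6.90%, 7.10%, 11.4% and 8.14%. Mutant 6, 7 and 8 fell within the wild type range, and mutant 9 and 10 above it. Neither relative passed the test between genotypes. On the log2 scale, the probe of miR-106a and miR-17 differed by 0.02 (-0.28 to 0.32) and that of miR-20a and miR-20b by 0.01 (-0.23 to 0.24), both with an edgeR adjusted p of 0.970.

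Per count of the probe for miR-20a and miR-20b, miR-106b was at 0.0790 to 0.0991 in wild type. It was at 0.0827, 0.0918, 0.101, 0.183 and 0.120 in mutant 6 to 10, with mutant 8, 9 and 10 above the wild type range and mutant 9 far above it. The mean difference was 0.31 (-0.12 to 0.87; exact permutation p = 0.175, adjusted p = 0.452). It was 0.13 without mutant 9, 0.03 without mutant 9 and 10, and 0.72 without mutant 6, 7 and 8. Against the probe for miR-106a and miR-17 it was 0.29 (-0.26 to 0.88; exact permutation p = 0.302, adjusted p = 0.452), with 0.11 without mutant 9, -0.03 without mutant 9 and 10, and 0.77 without mutant 6, 7 and 8. miR-93 was steadier, with mean differences of 0.04 (-0.25 to 0.36) and 0.03 (-0.26 to 0.37) against the same probes (exact permutation p = 0.706 and 0.865, adjusted p = 0.813 and 0.865). Only mutant 9 exceeded the wild type range in either.

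In the miR-92 seed family miR-25 was the dominant count, at 88.4% to 90.6% of the family's 6 probes in wild type and 88.1% to 94.5% in mutant samples, again highest in mutant 9 and 10. Of its relatives, miR-32 counted 283 to 398 in wild type and 208 to 512 in mutant samples, and miR-363, from the same cluster as miR-106a, 154 to 243 and 166 to 255. miR-92a, the abundant member of this seed in many tissues, counted 82 to 123 and was above background in 1 of 10 libraries, miR-92b counted 15 to 30 and miR-367 45 to 87, both in 0 of 10. Mir92-1, a gene of miR-92a, lies on chromosome 14 beside those of miR-17 and miR-20a. The probes of miR-17 and miR-20a, shared with miR-106a and miR-20b, counted 14303 to 21486 per library. Whether the low counts of miR-92a, miR-92b and miR-367 come from the cells or the probes was not tested. The share of miR-25 is therefore one of counts and not of molecules. In the fit over all probes, the mutant over wild type difference on the log2 scale was -0.17 for miR-32 (-0.66 to 0.32; edgeR adjusted p = 0.748). It was -0.06 for miR-363 (-0.53 to 0.41; edgeR adjusted p = 0.969).

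miR-25 per miR-32 was 16.8, 18.3, 17.7, 16.9 and 19.6 in wild type 1 to 5, and 22.9, 20.5, 13.8, 34.8 and 41.8 in mutant 6 to 10. Of the mutant libraries 4 lay above the wild type range and mutant 8 below it. This was the largest mean difference of the 9 ratios, at 0.48 on the log2 scale (-0.17 to 1.15; exact permutation p = 0.167, adjusted p = 0.452). It was 0.29 without mutant 10, 0.06 without mutant 9 and 10, and 1.10 without mutant 6, 7 and 8. miR-25 per miR-363 ran from 22.8 to 42.3 in wild type and from 27.6 to 68.1 in mutant samples, a mean difference of 0.33 (-0.38 to 1.02; exact permutation p = 0.294, adjusted p = 0.452). Mutant 9 and 10 were again the 2 highest libraries, and the value was 0.14 without mutant 9, -0.05 without both, and 0.88 without mutant 6, 7 and 8. Both ratios are of raw counts, from which background was not subtracted, over scarce probes. As multiples of the background threshold, miR-32 lay at 2.04 to 4.82 and miR-363 at 1.36 to 2.61.

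**Figure D5:**
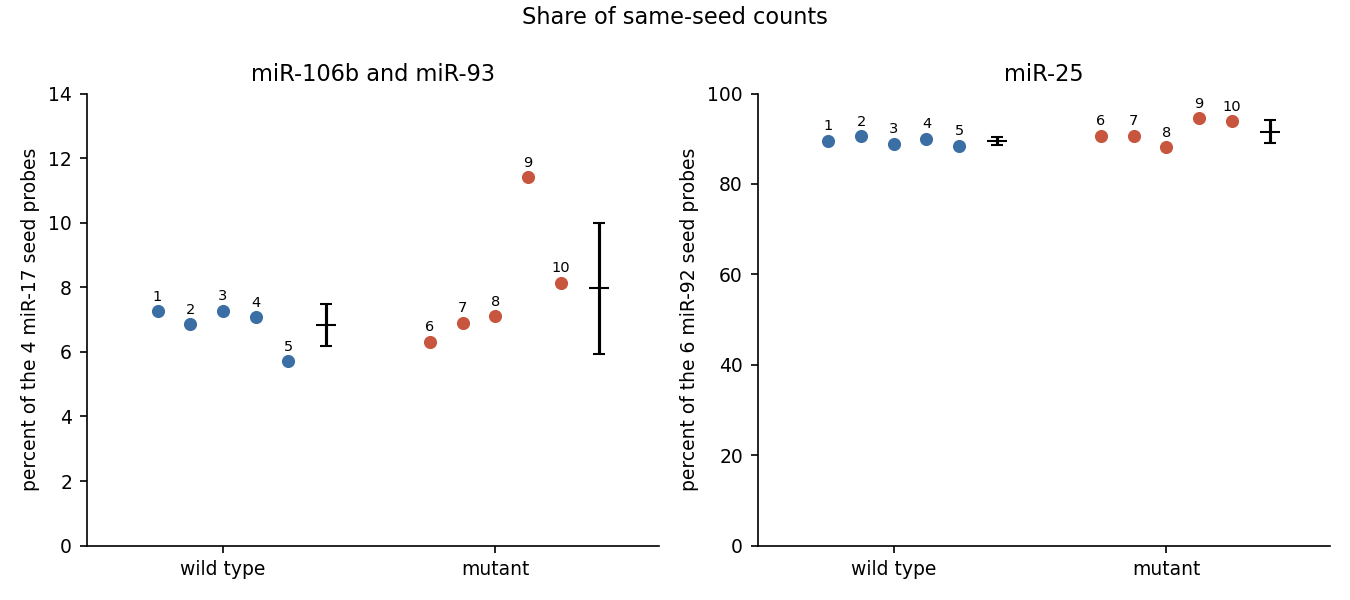
Counts of miR-106b and miR-93 as a percent of the 4 miR-17 seed probes (left) and of miR-25 as a percent of the 6 miR-92 seed probes (right), by library, with the mean and SD of each genotype (n = 5) in black. The highest library on both sides is mutant 9, at 11.4% and 94.5%. Shares are of probe counts and not of molecules.

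How closely the members varied together over the 10 libraries depended on the scaling. After TMM scaling, 0 of 3 pairs passed an adjusted p of 0.05. Pearson's r of log2 normalised counts was 0.68 between miR-106b and miR-25 (permutation p = 0.0317, adjusted p = 0.0952 over 3 pairs), with a Spearman rho of 0.49 (permutation p = 0.156, adjusted p = 0.467). Without mutant 9 and wild type 2, the libraries farthest from the median of miR-106b, r was 0.19, and leaving out the extremes of one measure also narrows its range. With the genotype means removed r was 0.48 (permutation p = 0.155). Between miR-106b and miR-93 r was -0.16 (rho -0.22, permutation p = 0.644 and 0.536), or -0.36 without the same 2 libraries. Between miR-25 and miR-93 r was 0.11 (rho 0.24, permutation p = 0.749 and 0.512), or -0.12 without mutant 9 and wild type 5. Under positive-control scaling r was 0.56 for miR-106b and miR-93 (permutation adjusted p = 0.0896), 0.86 for miR-106b and miR-25 (0.0177) and 0.73 for miR-25 and miR-93 (0.0234). Under housekeeping scaling it was 0.87 (permutation adjusted p = 0.00195), 0.94 (0.00045) and 0.92 (0.000555) for the same pairs. Within a library all members are divided by 1 control value, which those points share.

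After TMM scaling, other probes had higher correlations with each member than the members had with each other. By Pearson's r of log2 normalised counts over the 10 libraries, the 3 probes most like miR-106b were miR-2138 (0.83), miR-350 (0.80) and miR-30d (0.80), while miR-25 came 12th of 115 at 0.68 and miR-93 65th. For miR-25 they were miR-30c (0.85), miR-30e (0.84) and miR-191 (0.79), with miR-106b 6th and miR-93 44th. For miR-93 they were miR-15b (0.76), miR-423-5p (0.73) and miR-103 (0.72), with miR-25 46th and miR-106b 65th. These are the highest of 115 values each, over libraries that share their scaling, and are given as a description. miR-2138 was at 533 normalised counts in mutant 9, also the highest library for miR-106b, and at 127 to 301 in the others. Of the 6 probes like miR-106b or miR-25, miR-350 and miR-30d were higher in all mutant than in all wild type libraries. They were the only 2 such probes of the 116 (1.72%), so this share is no separate background for them. Both were picked by likeness over the same libraries, genotype difference included. In edgeR 0 of the 6 passed (adjusted p from 0.250 to 0.491).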

How the data were processed

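Sample titles gave each sample's genotype and number. Per the labels, the nCounter input was 100 ng of RNA. The deposited tables hold raw counts per probe, equal for all 626 probes in both tables, and earlier steps by the authors were not stated in what was used here. Within a genotype, every pair of libraries differed by more than sampling noise (chi-square per degree of freedom at least 16.3).

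Probes above the mean + 2 SD of a library's negative controls in at least 5 libraries entered a TMM-scaled quasi-likelihood test (edgeR 4.0.16 in R 4.3.3, robust, genotype as the factor, TMM factors 0.872 to 1.11), with p-values adjusted by Benjamini-Hochberg over 116 probes. The code was first run on simulated data. Ratios used exact permutation tests, correlations 100000 resamples, and intervals are 95%. Alternatives were DESeq2 1.42.0, limma 3.58.1, other scalings and filters, background subtraction and left-out libraries. Members, marker lists and tests were chosen with earlier results of these data known. The text names the members, their same-seed probes and, per member, the 3 probes most like it.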

Additional observations from a re-analysis of the deposited data

Results flagged for a closer look

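Dixon's test, with a critical value of 0.71 for groups of 5, was applied to 30 groups of values, and chance flags about 1 in 20. It picked out 3 values. The ratio of miR-25 to miR-93 was 8.74 in wild type 4, above the other wild type libraries at 7.11 to 7.56. The share of miR-106b and miR-93 in miR-17 seed counts was 5.70% in wild type 5, below the other wild type libraries at 6.85% to 7.27%. The ratio of miR-93 to the probe of miR-106a and miR-17 was 0.0711 in mutant 9, above the other mutant libraries at 0.0498 to 0.0557.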

How the results depend on the processing

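Of 270 alternative values, 244 were labelled unchanged, by rules that differed between results. Fold changes, ratios and correlations had to keep direction and side of the threshold, and none passed it in the main setting. Counts of called probes had to stay at 0, and the cluster share within 1 SD of its main difference. With 2 mutant libraries the smallest p of the ratio test is 0.0476 before adjustment, so a ratio could hardly pass there. Where a cause is not named, it was not tested. Without mutant 6, 7 and 8, which leaves 2 mutant libraries, miR-25 was at 0.43 (edgeR adjusted p = 0.0411), miR-93 turned to -0.10, and 20 probes passed, 1 of them a member. Without mutant 9 and 10, 5 probes passed, and the log2 differences turned to -0.029 for miR-106b over miR-106a and miR-17, -0.060 and -0.0018 for miR-93 over that probe and over miR-20a and miR-20b, and -0.046 for miR-25 over miR-363. DESeq2 called 5 probes. With 1 library left out at a time, 0 to 1 probes passed (1 without mutant 9 and 1 without mutant 10), miR-106b ran from 0.25 to 0.38, miR-25 from 0.21 to 0.33 and miR-93 from -0.0068 to 0.12. The ratio differences ran from -0.041 to 0.12 for miR-106b over miR-25, and for miR-93 from -0.064 to 0.077 over miR-106a and miR-17 and from -0.046 to 0.096 over miR-20a and miR-20b. Correlations were 0.56, 0.86 and 0.73 under positive-control scaling and 0.87, 0.94 and 0.92 under housekeeping scaling (miR-106b with miR-93, miR-106b with miR-25, miR-25 with miR-93), and -0.12 for the last pair without the 2 farthest libraries. Of the correlations, 0 of 3 passed an adjusted p of 0.05 after TMM, 2 of 3 under positive-control and 3 of 3 under housekeeping scaling. Without the filter on low probes, where 404 of the 566 probes were above background in no library, miR-106b was at 0.55, miR-25 at 0.47 and miR-93 at 0.25. No paired analysis was made because the labels do not pair wild type with mutant cultures. Counting error was 1.07% to 3.44% of a member's count, against a spread between libraries of 4.94% to 19.4%.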
